A study of Mus musculus with 6 samples.

Results

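The histone genes were examined in synchronized mGLUTag cells, a mouse line that models the intestinal L-cell and secretes glucagon-like peptide-1. The members are every probe whose gene symbol begins with HIST or H2AF in the deposited array table, which gave 100 probes for 66 gene symbols out of 45281 probes and 30854 symbols. Of these, 89 probes for 59 genes belong to the clustered HIST genes and 11 probes for 7 genes belong to the H2AF variants (H2AFJ, H2AFV, H2AFX, H2AFY, H2AFY2, H2AFY3 and H2AFZ). RNA was taken 4 h and 16 h after synchronization, with 3 samples at each time and 1 Illumina BeadChip per sample. Both groups came from the same line, were held in low serum, received forskolin and were then returned to growth medium, so that they differ only in the time of harvest as far as the labels and methods say. The study contrasted the 2 times as the peak and the trough of Bmal1 expression, and no unsynchronized sample was analysed here. mGLUTag is a single immortalized line kept in culture, and the sources do not say whether the 3 samples of a time came from separate cultures, so that the p-values below measure the spread between these arrays, which may be technical. In bulk RNA, fewer cells in a cell cycle phase and less RNA per cell cannot be told apart.

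Histones are the proteins around which DNA is wound. The core nucleosome holds pairs of H2A, H2B, H3 and H4, and the linker histone H1 binds the DNA between nucleosomes. Replication-dependent histones are encoded by many near-identical genes in clusters, are made mainly in S phase to package new DNA, and give mRNAs without introns that end in a stem-loop and not in a poly(A) tail. Replacement variants are encoded by separate genes, are made throughout the cell cycle, give polyadenylated mRNAs, and are placed into chromatin outside replication by dedicated chaperones. H2A.Z (H2AFZ and H2AFV) marks promoters, H2A.X (H2AFX) is phosphorylated at DNA breaks, and the macroH2A proteins (H2AFY and H2AFY2) are found in repressed chromatin. H2A.X stands between the classes, since its mRNA can end either way. How the RNA was primed for labelling, which bears on mRNAs without poly(A) tails, is given only as the manufacturer's standard method. Detection and brightness may therefore not be comparable between the classes, and this was not tested.

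All 66 symbols matched a RefSeq mouse gene through an older name. In the current nomenclature H2AFZ is H2az1, H2AFV is H2az2, H2AFJ is H2aj, H2AFX is H2ax, H2AFY is Macroh2a1 and HIST1H1C is H1f2. Of the clustered genes, 46 lie on chromosome 13, 9 on chromosome 3, 3 on chromosome 11 and 1 on chromosome 6. The 7 variant genes lie apart from each other, 1 each on chromosomes 3, 6, 9, 10, 11, 13 and 15.

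Most histone probes gave signal above the noise. A probe was counted as detected when its background-subtracted intensity exceeded the noise limit of each of the 6 arrays. That limit was the 99th percentile of the negative values of the array, taken without their sign, and lay between 9.2 and 14 intensity units. By this rule 60 of 89 cluster probes (67.4%) and 8 of 11 variant probes (72.7%) were detected, against 14941 of all 45281 probes (33.0%). A further 7 cluster probes were above the limit on 3 to 5 arrays and 2 on 1 or 2 arrays, and 20 were above it on no array. Among the variants, 1 probe of H2AFY2 was above it on 1 array, and a probe of H2AFJ and the only probe of H2AFY3 on none. At the level of genes, 42 of 59 cluster genes and 6 of 7 variant genes had a detected probe. With the limit set at the 95th percentile or at the most negative value, 62 or 56 cluster probes and 8 variant probes in both cases were detected.

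Detection varied among the histone types of the clusters. It reached 21 of 24 H2A probes (87.5%), 15 of 20 H4 probes (75.0%), 12 of 20 H2B probes (60.0%), 10 of 18 H3 probes (55.6%) and 2 of 7 H1 probes (28.6%). The 2 detected H1 probes are both of HIST1H1C, the linker histone H1.2, whereas HIST1H1A, HIST1H1D, HIST1H1E and the testis form HIST1H1T were above the limit on no array. The other testis histones were likewise at background, HIST1H2BA on all arrays and HIST1H2AA on all but 4 h replicate 3, where it read 13.0 units. Mean intensities over the 6 arrays ran from 19.9 to 18556 units among detected H2A probes, 12 of which exceeded 4000 units, from 19.7 to 3440 among H3 probes, from 23.1 to 430 among H4 probes and from 57.9 to 271 among H2B probes. The detected variant probes ran from 79.2 to 9644 units. Brightness depends on each probe's own sequence, so these ranges describe probes and do not order the genes.

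Probes of 1 gene often disagreed. Of 25 genes with several probes, 14 had every probe detected, 10 had some detected and others not, and 1 had no detected probe. The H3 gene HIST2H3C1 had probes with means of 2558, 35.9 and 1.03 units, and the HIST1H3H probes read 1953, 86.3 and 15.8 units. For the H2B gene HIST1H2BE, 2 probes had means of 271 and 218 units and the third was at -0.6 units. Because coding sequences within a histone type are nearly identical, a probe may bind mRNA of several genes, and this was not tested, since probe sequences were not analysed here.

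The promoters of both classes were searched for letters that transcription factors bind. Windows of 300 bases, 250 before and 50 after the gene's start, were read from RefSeq on GRCm38.p6 for 53 cluster and 5 variant genes and searched on both strands. CCAAT, the letters of the box bound by NF-Y, was present in 45 of 53 cluster windows (84.9%), 4 of 5 variant windows (80.0%) and 41.1% of the 27025 genes with a window. By type it was in every H1, H2A, H2B and H3 window of the clusters (6, 17, 12 and 7) but in only 3 of 11 H4 windows (27.3%). TATAAA, which TBP binds, was present in 31 cluster windows (58.5%), in 0 of 5 variant windows and in 15.7% of all. The octamer ATGCAAAT, which OCT1 binds in H2B promoters, was present in 14 cluster windows (26.4%), 7 of 12 for H2B and 7 of 17 for H2A, in 0 variant windows and in 1.97% of all. The E-box CACGTG, the palindrome that BMAL1 and CLOCK bind, was found in 0 of 53 cluster windows, in 1 of 5 variant windows (H2AFZ) and in 8.09% of all. Noncanonical E-boxes, such as those the paper examined before the Scgn gene, were not searched for. A match is only a run of letters, and no binding was measured.

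Of the H2A genes, 9 stand head to head with an H2B gene, with starts 163 to 280 bases apart, so that the pair shares its upstream sequence. In 3 of these pairs the H2B gene had no window of its own and was not searched. In the others the shared bases were searched for each gene, so that a motif there can count for both. The motif counts of H2A and H2B are therefore not independent. The stretches below are shown because their genes carry the array values that follow: a pair of H2A genes with bright probes, the H2A.Z and H2A.J variants, and the linker histone. HIST1H2AD is read on the plus strand from chr13:23574208-23574380, the 173 bases between its start and that of HIST1H2BF. HIST1H2AH is read on the minus strand from chr13:22035644-22035820, the 177 bases between its start and that of HIST1H2BK. H2AFZ (chr3:137864337-137864486), H2AFJ (chr6:136808098-136808247) and HIST1H1C (chr13:23738657-23738806) are on the plus strand, each with the 150 bases before the start. All are GRCm38.p6, 5′ to 3′ along the named gene, and lie outside its transcript. Capitals mark CCAAT or its reverse complement ATTGG, and in HIST1H2AH also the octamer.
HIST1H2AD: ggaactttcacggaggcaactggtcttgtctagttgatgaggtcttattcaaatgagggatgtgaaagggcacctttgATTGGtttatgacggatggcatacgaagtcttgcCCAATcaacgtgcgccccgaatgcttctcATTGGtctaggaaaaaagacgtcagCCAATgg
HIST1H2AH: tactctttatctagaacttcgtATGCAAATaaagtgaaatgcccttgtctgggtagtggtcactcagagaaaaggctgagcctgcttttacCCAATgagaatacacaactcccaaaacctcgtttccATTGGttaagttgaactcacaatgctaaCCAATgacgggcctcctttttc
H2AFZ: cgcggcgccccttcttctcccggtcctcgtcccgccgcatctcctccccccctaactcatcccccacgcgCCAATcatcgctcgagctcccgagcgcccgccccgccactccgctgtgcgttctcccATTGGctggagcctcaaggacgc
H2AFJ: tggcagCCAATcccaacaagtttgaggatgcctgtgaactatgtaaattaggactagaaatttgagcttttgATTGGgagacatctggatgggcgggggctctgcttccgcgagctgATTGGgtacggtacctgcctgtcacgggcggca
HIST1H1C: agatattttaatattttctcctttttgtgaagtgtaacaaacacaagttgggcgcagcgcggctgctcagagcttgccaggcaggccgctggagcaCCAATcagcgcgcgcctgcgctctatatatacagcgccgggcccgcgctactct

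The stretch of HIST1H2AD holds 4 CCAAT boxes, that of HIST1H2AH 3 beside the octamer, that of H2AFJ 3, that of H2AFZ 2 and that of HIST1H1C 1. TATAAA occurs in none of these 5 stretches, and the CACGTG of H2AFZ lies in the part of its window that is not printed.

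No histone probe passed the test between 4 h and 16 h. Intensities were background-corrected, quantile-normalized and put on the log2 scale, and limma tested 4 h minus 16 h over all 45281 probes with Benjamini-Hochberg adjustment. At an adjusted p under 0.05, 0 histone probes were called in either direction, beside 4 of all probes (0.00883%), of which 2 were higher at 4 h (0.00442%) and 2 lower (0.00442%). At an unadjusted p under 0.05, limma gave 4 histone probes, 2 in the clusters and 2 among the variants, beside 5.42% of all probes and 10.3% of the 17366 probes that exceeded the noise limit on at least 3 arrays. The smallest limma adjusted p was 0.376 among variant probes above that limit and 0.688 among cluster probes. The latter is HIST1H1B, which passed the limit at 16 h only and is 1 of the 2 cluster probes at the unadjusted threshold, and without it the smallest was 0.878. Arrays were also simulated, with a spread drawn from the variance that limma fitted over all probes, including those at background. On them the same test recovered 94 of 100 probes with a log2 change of 1 and 42 of 100 with a change of 0.5. Changes below 0.5 were thus mostly not detectable with 3 arrays per time. The residual SD of the real fit had a median of 0.149 over all detected probes and 0.255 over cluster H2A. The simulation was not matched to these values, so recovery may be lower for histone probes.

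The changes were small in both classes. Over the 67 cluster probes above the limit on 3 or more arrays, the log2 change ran from -0.26 to 0.26 with a median of -0.0028, with 33 above 0 and 34 below. The lower end is HIST1H1B, which passed the limit on its 3 arrays at 16 h and on none at 4 h, so that its difference decided its entry. Without it the 66 others ran from -0.17 to 0.26 with a median of -0.000766, with 33 above 0 and 33 below. The 8 variant probes ran from -0.39 to 0.19 with a median of 0.11, with 5 above 0 and 3 below. The median over all 17366 such probes was 0.0044. By type, the medians were 0.05 for H2B (10 above 0, 3 below), 0.0065 for H4 (10 and 8), -0.04 for H2A (8 and 13), -0.06 for H3 (3 and 9) and 0.05 for H1 (2 and 1), all as positions relative to the whole array, whose middle moves up under median scaling as given below. The 3 arrays of 1 time lay entirely apart from those of the other for 2 cluster and 3 variant probes, 5 of 75, while 11.4% of all such probes did so (6.1% higher at 4 h and 5.33% lower). Of the 2 cluster probes, the 1 that was lower at 4 h is again HIST1H1B. The variant median rests on few probes and was 0.0159 without 4 h replicate 3, and 0.172 without 16 h replicate 1.

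**Figure D1:**
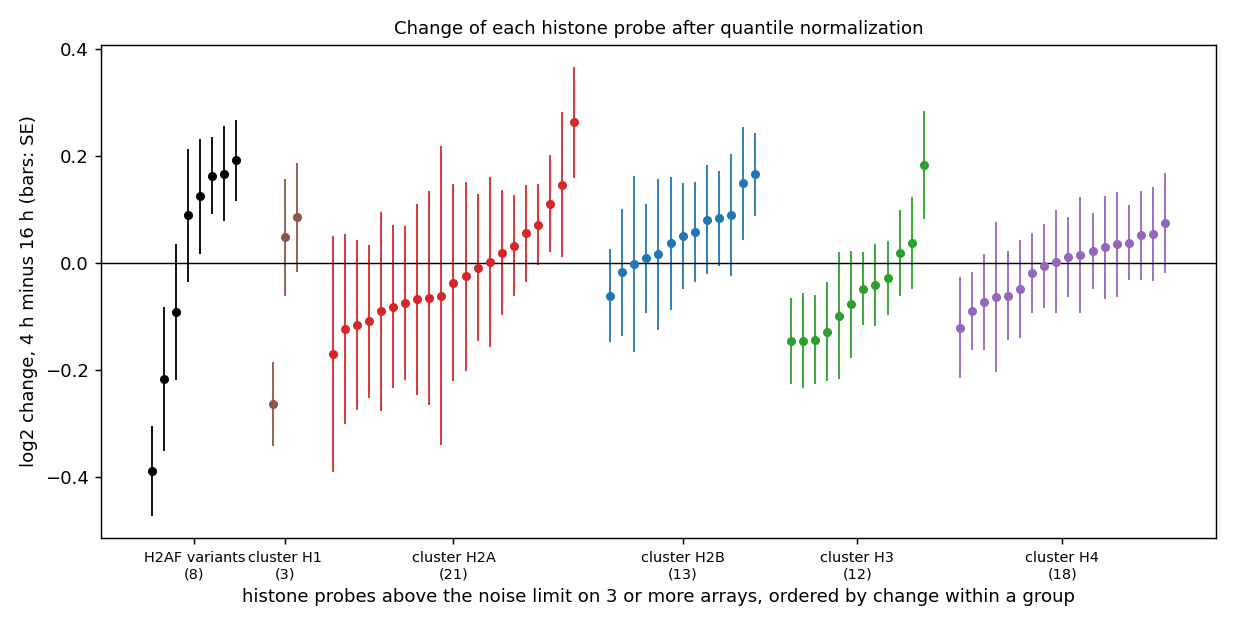
Log2 change, 4 h minus 16 h, of each histone probe that exceeded the noise limit on at least 3 arrays, by class and type. Each point is 1 probe with its SE as a bar, after quantile normalization, and the cluster types lie around 0, between -0.26 and 0.26, while the variants run from -0.39 (H2AFV) to 0.19 (H2AFJ).

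These changes are relative to the other probes of the arrays. The 4 h arrays were brighter as deposited, with a mean intensity over all probes of 322 ± 31.3 units against 236 ± 17.0 at 16 h (SD, n = 3). The deposited intensity ratio, 4 h over 16 h, had a log2 median of 0.55 over all detected probes (14670 of 14941 above 0). It was 0.54 over the cluster probes (60 of 60 above 0) and 0.62 over the variants (8 of 8 above 0). The H2A probes stood lower, with a median of 0.44 (21 of 21 above 0). Of them, 6 of 21 (28.6%) were brighter on all 4 h arrays than on all 16 h arrays, against 49.2% of all detected probes. That share was 50% for the detected cluster probes (30 of 60) and 62.5% for the detected variant probes (5 of 8). Quantile normalization removes a shift of the whole array whether it is technical or not. When arrays were only scaled to the same median, the middle of all detected probes stood at 0.303, the cluster histones at 0.254 and the variants at 0.4, and 2 histone probes passed the threshold beside 832 of all probes (1.84%), all of them higher at 4 h. They were HIST2H2AA1 (ILMN_2751948; 0.449, limma adjusted p = 0.045) and HIST1H3H (ILMN_2592253; 0.374, limma adjusted p = 0.0489). With no between-array normalization both passed again, with 5 more cluster probes (HIST1H2BC, HIST1H2BJ, HIST2H3B, HIST1H4A and HIST1H4J) and 2 variant probes (H2AFJ and H2AFX), with changes of 0.408 to 0.653 where the middle of all detected probes stood at 0.392 and 2308 of all probes (5.1%) passed. The limma adjusted p of these 9 lay between 0.0329 and 0.0497, and those outside the named set were chosen after their values were seen. At an unadjusted p under 0.05, limma gave 35 of 100 histone probes under median scaling, beside 19.1% of all probes, and 44 with no between-array normalization, beside 26.6%.

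Among the replacement variants, H2AFZ, which encodes the H2A.Z protein exchanged into promoter nucleosomes, had intensities of 13721, 10802 and 9755 units at 4 h in replicates 1, 2 and 3 against 9505, 7172 and 6908 units at 16 h. After normalization its log2 levels were 13.41, 13.33 and 13.13 at 4 h against 13.37, 13.02 and 13.11 at 16 h. The 4 h arrays were the brighter ones as deposited, and after normalization the times overlapped, since 16 h replicate 1 lay above 2 of the 4 h arrays. The log2 change was 0.12 ± 0.11 (SE, n = 3 per time; limma adjusted p = 0.959). It ran from 0.0531 without 16 h replicate 2 to 0.225 without 16 h replicate 1, and was 0.00428 under linear scaling.

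H2AFV encodes the second H2A.Z protein and gave the most negative changes among the H2AF variants. Its probe ILMN_2703385 had normalized log2 levels of 9.85, 9.89 and 9.70 at 4 h against 10.20, 10.09 and 10.31 at 16 h. All 4 h arrays were below all 16 h arrays, with a log2 change of -0.39 ± 0.08 (SE) and a limma adjusted p of 0.376, so that it did not pass the test. As deposited, the same probe read 1079, 917 and 957 units at 4 h against 950, 908 and 874 units at 16 h, values that overlapped, and under median scaling its change was 0.0184. The negative sign is thus a position relative to the other probes, and it turned with that scaling. The other H2AFV probe, ILMN_2688345, read 11.69, 11.92 and 11.32 at 4 h against 11.79, 11.88 and 11.91 at 16 h. There the times overlapped, with 4 h replicate 3 lowest, and the change of -0.22 (limma adjusted p = 0.943; 0.173 under median scaling) came with an SD within time points of 0.218, the widest of the variants. That change was -0.056 without 4 h replicate 3 and -0.35 without 4 h replicate 2.

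H2AFJ, a variant close to canonical H2A, pointed the other way. Its probe ILMN_1222767 read 7.23, 7.17 and 7.25 at 4 h against 7.12, 6.91 and 7.05 at 16 h, and ILMN_2524980 read 7.72, 7.62 and 7.64 at 4 h against 7.60, 7.43 and 7.46 at 16 h. In both probes all 4 h arrays lay above all 16 h arrays, and the log2 changes between the means of the times were 0.19 and 0.16. Neither passed the test (limma adjusted p = 0.878 and 0.919), and the third H2AFJ probe was at background on all 6 arrays.

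H2AFX, which encodes the histone phosphorylated at DNA breaks, read 9.69, 9.82 and 10.02 at 4 h against 9.70, 9.66 and 9.66 at 16 h. Only 4 h replicate 1 fell among the 16 h arrays, and the change was 0.17 ± 0.09 (SE; limma adjusted p = 0.924). Without 4 h replicate 3 it was 0.0785, and without 4 h replicate 1 it was 0.243. H2AFY, the macroH2A1 gene, read 11.11, 11.40 and 11.28 at 4 h against 11.07, 11.49 and 11.51 at 16 h, and the times overlapped, with a change of -0.09 that turned positive under median scaling, without between-array normalization and with an 18S block, which sets apart the 3 arrays highest in 18S rRNA (4 h replicates 1 and 3 and 16 h replicate 1). Leaving out 1 array moved it between -0.235 and -0.0144. The detected probe of H2AFY2, the macroH2A2 gene, had a mean of 84.5 units and a change of 0.09. Neither gene passed the test (limma adjusted p = 0.974 and 0.974).

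**Figure D2:**
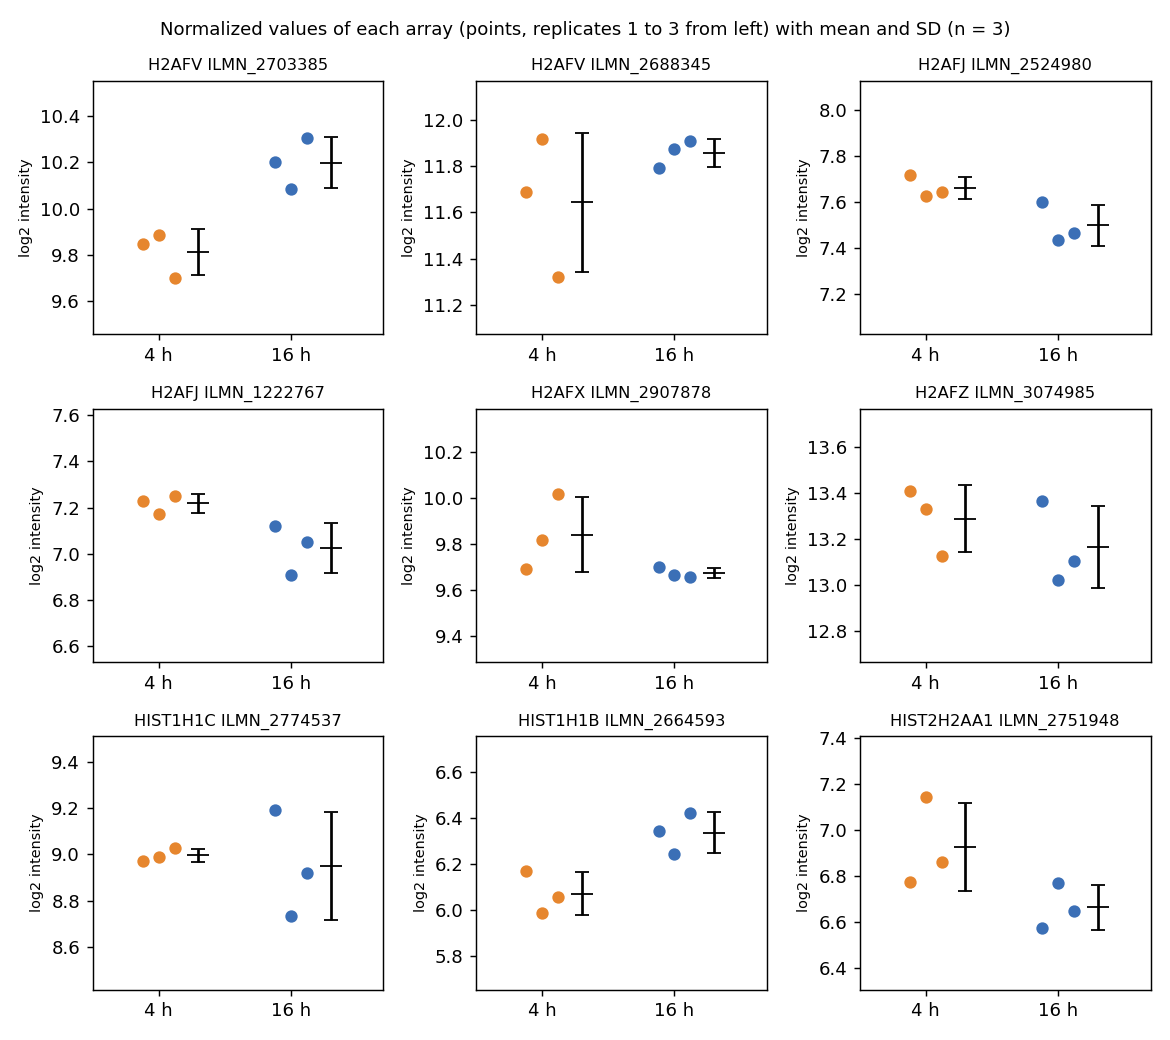
Normalized log2 levels of single histone probes on the 6 arrays, with the replicates of each time as points (1 to 3 from the left) beside their mean and SD (n = 3). H2AFV (ILMN_2703385) lies lower on all 4 h arrays than on all 16 h arrays, H2AFJ (ILMN_1222767) lies higher, and neither passed the test across all probes.

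In the clusters, the linker histone HIST1H1C had normalized log2 levels of 8.97, 8.99 and 9.03 at 4 h against 9.19, 8.73 and 8.92 at 16 h. The 4 h arrays sat close together, with an SD of 0.03, inside the range of the 16 h arrays, whose SD was 0.23. The change was 0.05 ± 0.11 (SE; limma adjusted p = 0.983), and that of the gene's other probe was 0.08. Without 16 h replicate 1 it was 0.172 and without 16 h replicate 2 it was -0.0611. HIST1H1B, the linker histone H1.5, was named after its values were seen, as the only other H1 probe to pass the limit on 3 arrays. It read 13.2, 0.9 and 4.6 units at 4 h against 16.5, 11.7 and 16.3 units at 16 h, so that it exceeded the limit on all 16 h arrays and on 0 of the 4 h arrays. Its deposited intensities overlapped, and the normalized change of -0.26 (limma adjusted p = 0.688) was read at the noise limit. Its size depends on the background step, at -0.493 with an offset of 16 and -2.4 without background correction, where it did not pass the test either (limma adjusted p = 0.778 and 0.844).

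The H2A genes hold the brightest probes among the members. HIST1H2AO (ILMN_2836654) read 14.16, 14.41 and 13.87 at 4 h against 13.80, 14.42 and 14.29 at 16 h on the normalized log2 scale. Its lowest arrays were 4 h replicate 3 and 16 h replicate 1, the times overlapped, and the change was -0.02 ± 0.18 (SE; limma adjusted p = 0.997), of a sign that turned under median scaling, without between-array normalization and with the 18S block. HIST2H2AA1 (ILMN_2751948) was the cluster probe with the highest change, 0.26 ± 0.10 (SE; limma adjusted p = 0.878). It read 6.78, 7.14 and 6.86 at 4 h against 6.57, 6.77 and 6.65 at 16 h, so that the lowest 4 h array only just exceeded the highest 16 h array, and without 4 h replicate 2 the change was 0.154. The gene's other probes had changes of 0.07 and -0.08.

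The pair of H2A genes whose upstream stretches are printed above stood as follows. HIST1H2AD (ILMN_1226839) read 14.03, 14.12 and 13.61 at 4 h against 13.55, 14.13 and 14.20 at 16 h, with 4 h replicate 3 and 16 h replicate 1 lowest and the times overlapping (change -0.04, limma adjusted p = 0.995). HIST1H2AH (ILMN_1246108) read 13.07, 12.54 and 12.73 at 4 h against 12.49, 12.79 and 12.61 at 16 h, and there 16 h replicate 1 and 4 h replicate 2 were lowest. Its times overlapped too (0.15, limma adjusted p = 0.959), and the gene's other probe had a change of -0.11, so that the probes differ in sign. The H2B gene opposite, HIST1H2BK, had -0.02 (ILMN_2655785) and 0.01 (ILMN_2636781).

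The named H2B and H3 probes lay within 0.17 of 0. For H2B, HIST1H2BJ read 8.01, 7.97 and 7.84 at 4 h against 7.88, 7.72 and 7.72 at 16 h, with only 4 h replicate 3 below the highest 16 h array (change 0.17, limma adjusted p = 0.919). HIST2H2BE (ILMN_1231066) read 6.87, 7.17 and 6.88 at 4 h against 6.80, 6.98 and 6.69 at 16 h, and the times overlapped (0.15, limma adjusted p = 0.952). For H3, HIST1H3E read 8.46, 8.44 and 8.52 at 4 h against 8.72, 8.48 and 8.66 at 16 h, overlapping through 16 h replicate 2 (-0.15, limma adjusted p = 0.924). These H3 signs, like those of the 2 probes that follow, turned positive under median scaling and without between-array normalization. HIST1H3D (ILMN_2729958) read 8.51, 8.62 and 8.36 at 4 h against 8.56, 8.69 and 8.67 at 16 h, and its times overlapped (-0.14, limma adjusted p = 0.932). HIST1H3H (ILMN_2698519) read 7.15, 7.33 and 6.998 at 4 h against 7.26, 7.34 and 7.31 at 16 h, and they overlapped here too (-0.145, limma adjusted p = 0.942). The gene's other probes had changes of -0.03 (ILMN_2592253) and 0.18 (ILMN_2860616), so that the probes differ in sign. Single arrays set much of the changes of the named probes. Without 16 h replicate 2 the HIST2H2BE change was 0.229, and without 4 h replicate 2 that of HIST1H3H (ILMN_2698519) was -0.227. Without 4 h replicate 2 the HIST2H2BE change was 0.0509, without 4 h replicate 3 those of HIST1H3D and HIST1H3H were -0.0743 and -0.0628, and without 16 h replicate 1 that of HIST1H3E was -0.0947. Among 18 H4 probes above the limit on 3 or more arrays, the change ran from -0.12 to 0.07 and the smallest limma adjusted p was 0.956.

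The spread between arrays of 1 time was widest for the H2A genes of the clusters. The SD within time points, taken as the residual SD of the fit, had a median of 0.146 over detected cluster probes and 0.140 over detected variant probes, beside 0.149 over all detected probes. Without background correction the cluster median was 0.258 and the variant median 0.16, so that the nearness of these values depends on that step. Within the clusters, with the correction, the median was 0.255 for H2A, 0.154 for H2B, 0.105 for H4 and 0.098 for H3. Of 21 detected H2A probes, 11 (52.4%) had an SD above 0.25, against 12.2% of all detected probes, 1 of 12 H2B probes and 0 of the H3, H4, H1 and variant probes. The 12 H2A probes with means above 4000 units had a median SD of 0.286, and the 677 probes of the whole table above 4000 units one of 0.141. Without background correction the H2A median was 0.307, nearer to the 0.258 over all detected cluster probes. The other types were not read without that step. The part of brightness in the H2A spread was not tested.

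**Figure D3:**
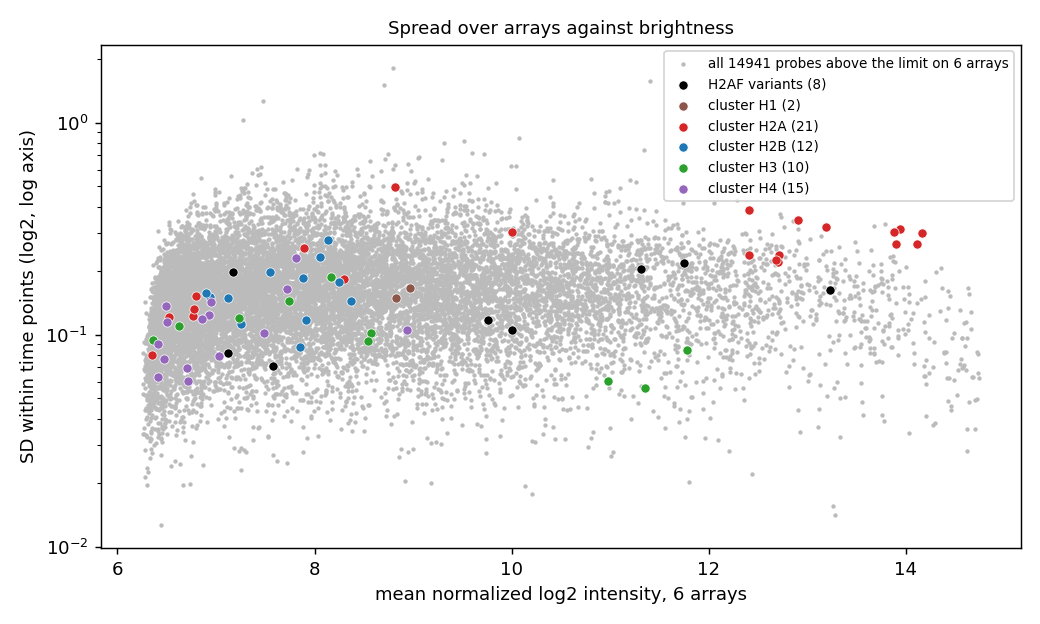
SD within time points of each detected probe (log scale) against its mean log2 level, with all detected probes in grey and histone classes in colour. Many cluster H2A probes lie above 0.25, at high and middle levels, while the variants stay at or below 0.218.

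The widest member was HIST2H2AB, an H2A gene of the second cluster. It had intensities of 581, 514 and 297 units at 4 h against 212, 426 and 366 units at 16 h, and normalized log2 levels of 9.01, 9.14 and 8.21 against 8.29, 9.08 and 9.18. On 4 h replicate 3 and 16 h replicate 1 it lay well below the other arrays, which fell between 9.01 and 9.18. Its SD was 0.498 and its change -0.06 ± 0.28 (SE; limma adjusted p = 0.994), and the sign turned under median scaling and with the 18S block. HIST1H2AN read 12.48, 12.68 and 11.82 at 4 h against 12.15, 12.62 and 12.72 at 16 h. The same 2 arrays were its lowest, with an SD of 0.387 and a change of -0.17 (limma adjusted p = 0.971), whose sign turned under the same settings.

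This array pattern ran through the H2A probes. As a median over the 21 detected probes, each taken as its deviation from its mean, H2A stood at 0.10, 0.16 and -0.29 on the 4 h replicates and at -0.16, 0.09 and 0.12 on the 16 h replicates. The 4 h replicate 3 array was the lowest of its time for 16 of 21 probes and the 16 h replicate 1 array the lowest of its time for 17 of 21. Both were the 2 lowest of all 6 arrays for 12 probes (57.1%), against 8.26% of all 14941 detected probes and 10.3% of the 677 above 4000 units. Without these 2 arrays the median SD of H2A was 0.113, beside 0.120 for all detected probes. The pair of arrays was picked because it was low in these same probes, so that a higher share and a lower SD follow in part from the choice, and both are given as a description. The probes can also share targets and are not independent.

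The other histones stood differently on these arrays. H2B medians were 0.07, 0.10 and -0.06 at 4 h against 0.05, -0.12 and -0.07 at 16 h, H3 medians stayed between -0.08 and 0.07, and H4 medians between -0.10 and 0.11, with 16 h replicate 1 as the highest H4 array. The variants stayed between -0.09 and 0.05. The 2 arrays were the lowest pair for 1 of 12 H2B probes and for 0 H3, H4 and variant probes. In the 5 head-to-head pairs with both genes detected, the brightest H2A probe had a larger SD than the brightest H2B probe in 5 of 5, but the order is not the same for every probe. In the pair HIST2H2AC and HIST2H2BE it was 0.306 against 0.117 for the brightest probes and 0.132 against 0.157 for the dimmer ones (ILMN_1254276 and ILMN_1231066). For HIST1H2AD and HIST1H2BF, whose stretch is printed above, the SDs were 0.316 and 0.232, and for HIST1H2AG and HIST1H2BJ they were 0.304 and 0.088.

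**Figure D4:**
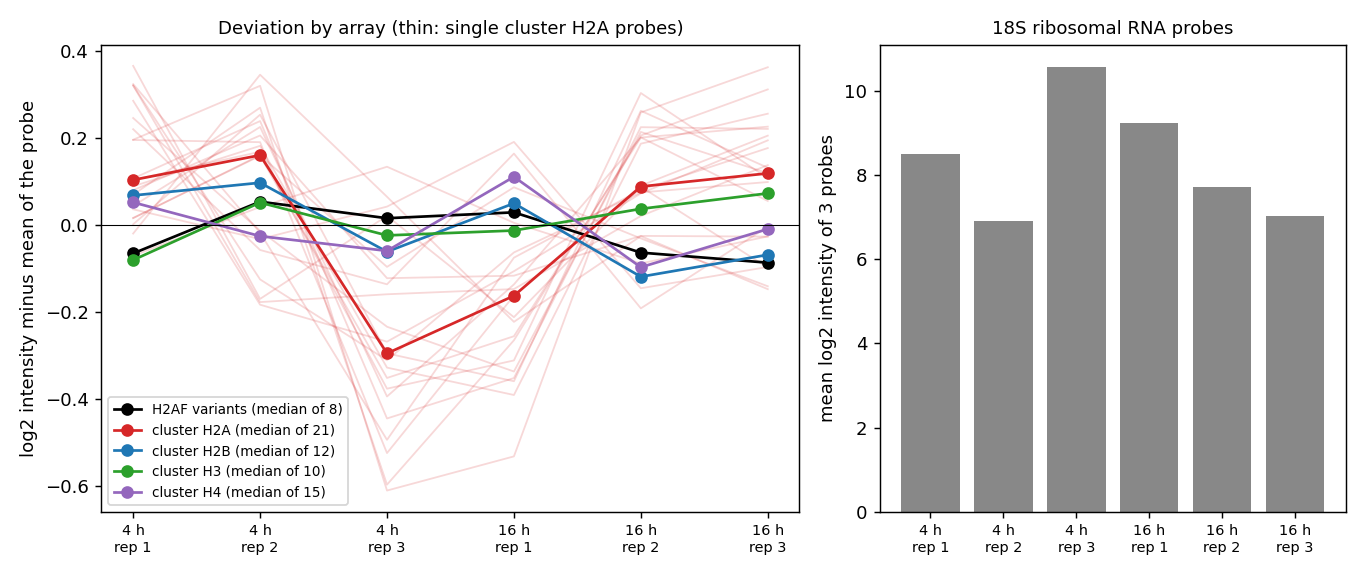
Median deviation of each histone group from the probes' own means on the 6 arrays (log2, left), with single H2A probes as thin lines, and the mean log2 level of 3 18S rRNA probes as bars (right). Cluster H2A is low on 4 h replicate 3 (-0.29) and on 16 h replicate 1 (-0.16), while the other groups stay within 0.12 of 0, and these 2 arrays have the highest 18S bars (10.57 and 9.24).

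A ribosomal RNA signal moved with the same arrays. The mean log2 level of the 3 probes for 18S rRNA (RN18S) was 8.50, 6.91 and 10.57 on the 4 h replicates and 9.24, 7.71 and 7.02 on the 16 h replicates, so that the 2 arrays lowest in H2A were the 2 highest in 18S. With the 18S block in the fit, the median SD of H2A was 0.223. The part of the 18S signal in the H2A values was not tested further. With that block 0 histone probes were called, and the variant median was 0.0494.

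The genes that serve histones were read from lists chosen with earlier results of these data known, each gene from its brightest probe. Of the other replacement and linker histones, 5 of 8 were above the limit on 3 or more arrays, 2 with a change above 0 and 3 below (median -0.02), and 0 were called. H1F0, the linker histone of non-dividing cells, read 9.21 ± 0.11 at 4 h and 9.55 ± 0.03 at 16 h (SD, n = 3), with all 4 h arrays lower. Its change of -0.34 did not pass the test (limma adjusted p = 0.376) and was 0.0529 under median scaling. CENPA, the centromeric H3, had a change of 0.09, and the H3.3 genes H3F3A and H3F3B had 0.10 and -0.02, with the opposite sign in the dimmer probe of each (-0.14 and 0.09). The sign of H3F3B turned under median scaling, that of CENPA under linear scaling and that of H3F3A with the 18S block. Leaving out 1 array, CENPA ran from 0.058 to 0.163, H3F3A from -0.0246 to 0.233 and H3F3B from -0.0872 to 0.0734.

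Of 14 genes for histone mRNA 3′ end processing and transcription, 11 were above the limit on 3 or more arrays, 4 with a change above 0 and 7 below, and 0 were called. SLBP, the protein that binds the histone stem-loop, was above the limit on no array with its single probe. SYMPK, the scaffold of the cleavage complex, and LSM10, a subunit of the U7 particle, had changes of -0.29 and -0.27, which turned positive under median scaling, and ZFP473 and CPSF3 had 0.15 and 0.12. The other detected probe of ZFP473 had -0.08. Single arrays moved these values, SYMPK to -0.168 without 4 h replicate 1, LSM10 to -0.0895 without 4 h replicate 3, and ZFP473 (ILMN_2811918) and CPSF3 to 0.0491 and 0.0651 without 16 h replicate 3. Other arrays moved them away from 0, SYMPK to -0.402 without 4 h replicate 3 and LSM10 to -0.43 without 4 h replicate 2. ZFP473 was 0.257 without 16 h replicate 1, and CPSF3 was 0.153 without 16 h replicate 2.

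Of 25 histone chaperones and exchange factors, 23 were above the limit, 10 with a change above 0 and 13 below, and 0 were called. RBBP4, a subunit of the chromatin assembly factor CAF-1 and of other complexes, has 4 probes, of which the brightest had intensities of 1309, 1155 and 1142 units at 4 h against 597, 569 and 487 units at 16 h. All 4 h arrays lay above all 16 h arrays before and after normalization, and the change of 0.56 ± 0.08 (SE) had a limma adjusted p of 0.168. It passed the threshold under median scaling (0.962, limma adjusted p = 0.0241) and without between-array normalization (1.05, limma adjusted p = 0.0295), where the middle of all detected probes stood at 0.303 and 0.392. The gene's other probes, all detected, had changes of 0.14, 0.17 and -0.03 (limma adjusted p = 0.959, 0.959 and 0.986), so that the value rests on 1 probe. CHAF1B, another CAF-1 subunit, had -0.23 (limma adjusted p = 0.718) with all 4 h arrays lower, a sign that turned under median scaling. HIRA and DAXX, which place H3.3, had 0.32 and -0.20, the latter of a sign that also turned. HIRA's other probe above the limit on 3 arrays had -0.03. Without 16 h replicate 3 the HIRA change was 0.149, and without 16 h replicate 1 it was 0.492. That of DAXX was -0.11 without 4 h replicate 1 and -0.342 without 16 h replicate 1.

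Of 20 S phase genes, 19 were above the limit, 6 with a change above 0 and 13 below (median -0.03), and 0 were called. CCNE1, cyclin E1, and RRM1, a subunit of ribonucleotide reductase, had changes of 0.20 and 0.21, and MCM2, of the replicative helicase, and the transcription factor E2F1 had -0.27 and -0.14, which turned positive under median scaling. CCNE1 passed the threshold under median scaling (0.509, limma adjusted p = 0.035) and without between-array normalization (0.597, limma adjusted p = 0.0309), and RRM1 only without that normalization (0.692, limma adjusted p = 0.0406). Leaving out 1 array, CCNE1 was 0.102 without 4 h replicate 2, RRM1 0.117 without 4 h replicate 3, MCM2 -0.105 without 4 h replicate 1 and E2F1 -0.0623 without 16 h replicate 2. The line's own markers were present, with 7 of 10 L-cell genes detected on all arrays, proglucagon (GCG), CHGA, CHGB and SCGN among them, while PYY was above the limit on no array and PCSK1 on 1. Of the markers of other cells, 0 of 4 blood, 0 of 4 enterocyte, 1 of 5 fibroblast and 1 of 3 goblet genes were detected. The fibroblast gene was COL1A1, with a mean of 24.3 units, and the goblet gene was TFF3, which was clearly above the limit on every array, with 532 to 865 units and a mean of 706 units.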

How the data were processed

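Total RNA from synchronized mGLUTag cells was hybridized by the authors to Illumina mouse WG-6 V2 BeadChips, 1 array for each of 3 samples at 4 h and 3 at 16 h. The deposited table holds a background-subtracted intensity for each probe on each array, on a linear scale and not normalized between arrays. Per array, 31.2% to 34.0% of values were negative. It gives no detection p-values, bead counts or control probes, and the scanner software and slides are not given in the sources used here.

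Intensities were corrected by normexp with an offset of 50, quantile-normalized and put on the log2 scale with limma 3.58.1 in R 4.3.3. Time was the only term of the linear model, fitted with empirical Bayes over all 45281 probes, with Benjamini-Hochberg adjustment over all of them and a threshold of 0.05. The test was two-sided, and changes are 4 h minus 16 h. An offset of 50 compresses changes of dim probes, and quantile normalization gives every array the same distribution. Changes are summarized for probes that exceeded the noise limit on at least 3 arrays. With 3 arrays per time that limit can be passed by 1 time alone, as HIST1H1B did, and summaries are also given without it, an alternative added after seeing the data. The number of arrays limits the precision. With 3 arrays against 3, a permutation test of 1 probe cannot go below p = 0.1, so none was used. The fit was tested on simulated arrays of 45281 probes, where it made 11 false calls.

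Members were taken by symbol. Given on every array are H2AFZ, H2AFX and HIST1H1C, and in each class the detected probe with the highest mean, the 3 with the smallest p in each direction and the 2 with the largest SD. Of each of the 4 lists on histone supply and S phase, the 2 genes with the smallest p in each direction are named, most by their change alone. Each listed gene is read from its probe with the highest mean intensity. The lists of cell type markers served for detection only. Members and lists were chosen with earlier results of these data known. Replicate numbers were not used as pairs in the main fit, and the sources do not say whether same-numbered samples belong together. Same-numbered arrays correlated in their deviations at 0.25, 0.17 and -0.49, which cannot settle that question. Alternatives changed the background correction, the offset, the normalization, the variance model, the blocks, the filter and the arrays used.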

Additional observations from a re-analysis of the deposited data

How the results depend on the processing

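The count of 0 called histone probes was the same under every alternative except 2, median scaling and no between-array normalization, under which the detected probes as a whole stood above 0. It was 2 under median scaling and 9 without between-array normalization beside 832 (1.84%) and 2308 (5.1%) of all probes. The median of all detected probes was 0.303 and 0.392. The median change of the cluster histones was then 0.254 and 0.343 and that of the variants 0.4 and 0.489. Leaving out 1 array at a time, the variant median ran from 0.0159 (without 4 h replicate 3) to 0.172 (without 16 h replicate 1) and the cluster median from -0.0313 to 0.0436. Without HIST1H1B the cluster median was -0.000766. Without background correction the median SD was 0.258 for the cluster histones, 0.16 for the variants and 0.307 for cluster H2A. With the correction, that of cluster H2A was 0.113 without 4 h replicate 3 and 16 h replicate 1. With the replicate number as a block, 0 histone probes were called.

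Signs turned mainly under the same 2 settings, given as median scaling and then no normalization: HIST1H2AO 0.233 and 0.321, HIST2H2AB 0.325 and 0.414, HIST1H2AN 0.193 and 0.282, HIST1H3E 0.238 and 0.327, HIST1H3D 0.24 and 0.328, HIST1H3H 0.132 and 0.221. For the variants and their relatives the values were 0.0184 and 0.107 (H2AFV, ILMN_2703385), 0.173 and 0.261 (H2AFV, ILMN_2688345), 0.292 and 0.381 (H2AFY), 0.0529 and 0.142 (H1F0), and 0.293 and 0.381 (H3F3B). For the listed genes they were 0.0393 and 0.128 (SYMPK), 0.131 and 0.219 (LSM10), 0.169 and 0.258 (CHAF1B), 0.176 and 0.264 (DAXX), 0.118 and 0.207 (MCM2), and 0.26 and 0.349 (E2F1). The 18S block turned HIST1H2AO to 0.135, HIST2H2AB to 0.167, HIST1H2AN to 0.00627, H2AFY to 0.0142, HIST1H1C to -0.0156 and H3F3A to -0.0236, and linear scaling turned CENPA to -0.0749. Leaving out 1 array gave ranges across 0 for HIST1H2AO (-0.209 to 0.123), HIST2H2AB (-0.344 to 0.227), HIST1H2AN (-0.351 to 0.0872), HIST1H1C (-0.0611 to 0.172), H3F3A (-0.0246 to 0.233) and H3F3B (-0.0872 to 0.0734). The cause of these turns was not tested beyond the shift of all probes. Signal near the noise limit bounds what can be read for the 22 histone probes above it on no array.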
